A study of Mus musculus with 16 samples.

Results

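The genes described here are Ciita, the master regulator of MHC class II transcription, and 7 genes of class II antigen presentation that it controls. They were chosen by name from the pathway, with earlier results of these data known: Ciita, Cd74, H2-Aa, H2-Ab1, H2-Eb1, H2-DMa, H2-DMb1 and H2-DMb2. These are 8 of the 13085 genes in the deposited table, and each was found in it once. The table holds 16 RNAseq libraries of mouse monocytes, taken after 6 h or 24 h of culture either unstimulated or given IFN-γ and 1 µg/mL MegaCD40L, a multimeric form of the ligand of CD40. IFN-γ was given first and MegaCD40L after it. The mice were C57BL/6 and either NFAM1+/+ or NFAM1-/-, the latter carrying a Cas9 deletion of exons 2 and 3 of Nfam1 in every cell. Each of the 4 conditions has 4 libraries, 2 of each genotype by the titles. Age is not given in the sources used here, and the libraries are numbered below as in their titles.

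CIITA does not bind DNA itself. It is recruited to the X and Y boxes upstream of class II genes by an assembly of RFX, CREB and NF-Y proteins, the enhanceosome, and its own amount sets how strongly those genes are transcribed. In monocytes and macrophages Ciita is switched on by IFN-γ through JAK kinases and IRF1, whereas dendritic cells and B cells express it without IFN-γ. The class II chains travel with the invariant chain (CD74), which blocks the peptide groove until it is degraded in endosomes, and H2-DM then exchanges its last fragment, CLIP, for an antigen peptide.

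On GRCm38, with the gene models of GENCODE vM21, Ciita lies on the plus strand of chromosome 16 from 10480059 to 10528418. The 6 H2 genes lie within 197 kb of chromosome 17, from the start of H2-DMa at 34119541 to the end of H2-Eb1 at 34316674, and H2-Aa is the one on the minus strand. The submitters' processing notes name GRCm39, a later build, for the deposited values, so these coordinates place the genes and were not used to count reads. Promoter windows of 300 bases (250 before and 50 after the start) came from RefSeq on GRCm38.p6 and were matched for 5 of the 8 genes. The X box was searched as AAC, 2 or 3 bases of any kind and TGANG, and the Y box as ATTGG, on both strands, with 10 to 30 bases between them. This pair was found in 4 of the 5 genes, H2-Aa, H2-Eb1, H2-DMb1 and H2-DMb2, and in 73 of the 32851 windows of all genes (0.222%). In the window of H2-DMa the pair was not found in these letters. The letters were set with the sequences in view, so the count among the 5 genes is no test against the share of all windows. Of the single motifs, the X box was in 5.77% and ATTGG or its reverse in 37.4% of all windows. A sequence that IRF proteins bind, GAAA, 2 bases and GAAA, was in 3.44% of all windows and in none of the 5 genes. The stretches of 3 of these 4 genes are shown so that their boxes can be compared. Capitals mark the X box and then the Y box.
H2-Aa, chr17:34287822-34287947, minus strand: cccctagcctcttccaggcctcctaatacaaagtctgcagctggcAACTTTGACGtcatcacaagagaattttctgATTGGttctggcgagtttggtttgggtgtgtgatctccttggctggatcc
H2-Eb1, chr17:34305733-34305857, plus strand: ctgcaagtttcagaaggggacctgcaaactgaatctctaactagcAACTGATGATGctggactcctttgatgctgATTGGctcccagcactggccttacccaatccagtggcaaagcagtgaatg
H2-DMb2, chr17:34145083-34145208, plus strand: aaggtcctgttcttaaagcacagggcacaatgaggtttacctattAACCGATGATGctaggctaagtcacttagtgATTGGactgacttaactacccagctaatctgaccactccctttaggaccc
The boxes are 21 bases apart in H2-Aa, 19 in H2-Eb1 and 20 in both H2-DMb genes. By GENCODE vM21 H2-DMb2 runs from 34143307 to 34151555, so its stretch, placed by the RefSeq start, lies inside that gene model. A match of letters is a description and was not tested for binding.

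Between 48295939 and 88514341 reads per library fell on the genes of the table, and values are given as CPM, the unlogged deposited log2 values, per scaled library size. The reads summed over that size came to 0.756 to 0.788 in the unstimulated libraries at both times, 1.24 to 1.32 in those stimulated for 6 h and 0.970 to 0.997 in those stimulated for 24 h. Scaling each library to its own total instead moved the median log2 fold change of all genes with the stimulus from -0.13 to -0.86 at 6 h and from 0.01 to -0.33 at 24 h. In libraries 44, 46, 56 and 58, from 24 h, the title names one genotype and the tag the other, so genotypes were pooled for stimulus and time. A figure legend of the study gives 4 NFAM1+/+ and 6 NFAM1-/- mice for its RNAseq. Which mouse gave which of the 16 libraries is not stated, so some may share a mouse, and p-values measure the spread between libraries. The labels give the cells as "PBL Monocyte", while the methods describe bone marrow. The 8 monocyte markers, among them Lyz2, Csf1r and Ly6c2, summed to 22241 to 30095 CPM in unstimulated and 8038 to 11440 CPM in stimulated libraries. They did not all fall. At 6 h Lyz2 was at 15690 to 17380 CPM without and at 2667 to 4159 CPM with the stimulus. Ly6c2 went the other way, at 345 to 503 and 2200 to 2505 CPM, as did Fcgr1, at 28.0 to 35.9 and 620 to 760 CPM. The B cell genes Ms4a1, Pax5, Ebf1 and Blk and the T cell genes Cd3e, Cd3d, Cd3g and Cd2 have no row in the table. All 10 dendritic cell markers do. They summed to 121 to 147 CPM in unstimulated and 194 to 263 CPM in stimulated libraries at 6 h. At 24 h they summed to 348 to 542 CPM without and 233 to 295 CPM with the stimulus. These markers did not move together. At 6 h Kit was at 2.55 to 5.97 CPM without and at 90.7 to 115 CPM with the stimulus. Flt3 went the other way, at 19.5 to 29.7 and 2.59 to 5.06 CPM, as did Cd209a, at 18.9 to 25.2 and 0.123 to 0.324 CPM. In such bulk libraries fewer cells of a type and less RNA per cell cannot be told apart.

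With IFN-γ plus CD40L all 8 genes rose at both times, Ciita the most at 6 h. Ciita was at 10.1, 11.2, 7.04 and 9.65 CPM in the unstimulated libraries at 6 h and at 199, 160, 153 and 172 CPM in the stimulated ones. At 24 h it was at 76.8, 52.2, 62.1 and 78.5 CPM without and at 396, 351, 395 and 470 CPM with the stimulus. The 4 conditions did not overlap, in the order unstimulated 6 h, unstimulated 24 h, stimulated 6 h and stimulated 24 h. The log2 fold change of Ciita with the stimulus was 4.18 at 6 h (SE 0.14, limma, Benjamini-Hochberg adjusted p = 3.26e-14) and 2.59 at 24 h (SE 0.14, limma, adjusted p = 3.53e-11).

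**Figure D1:**
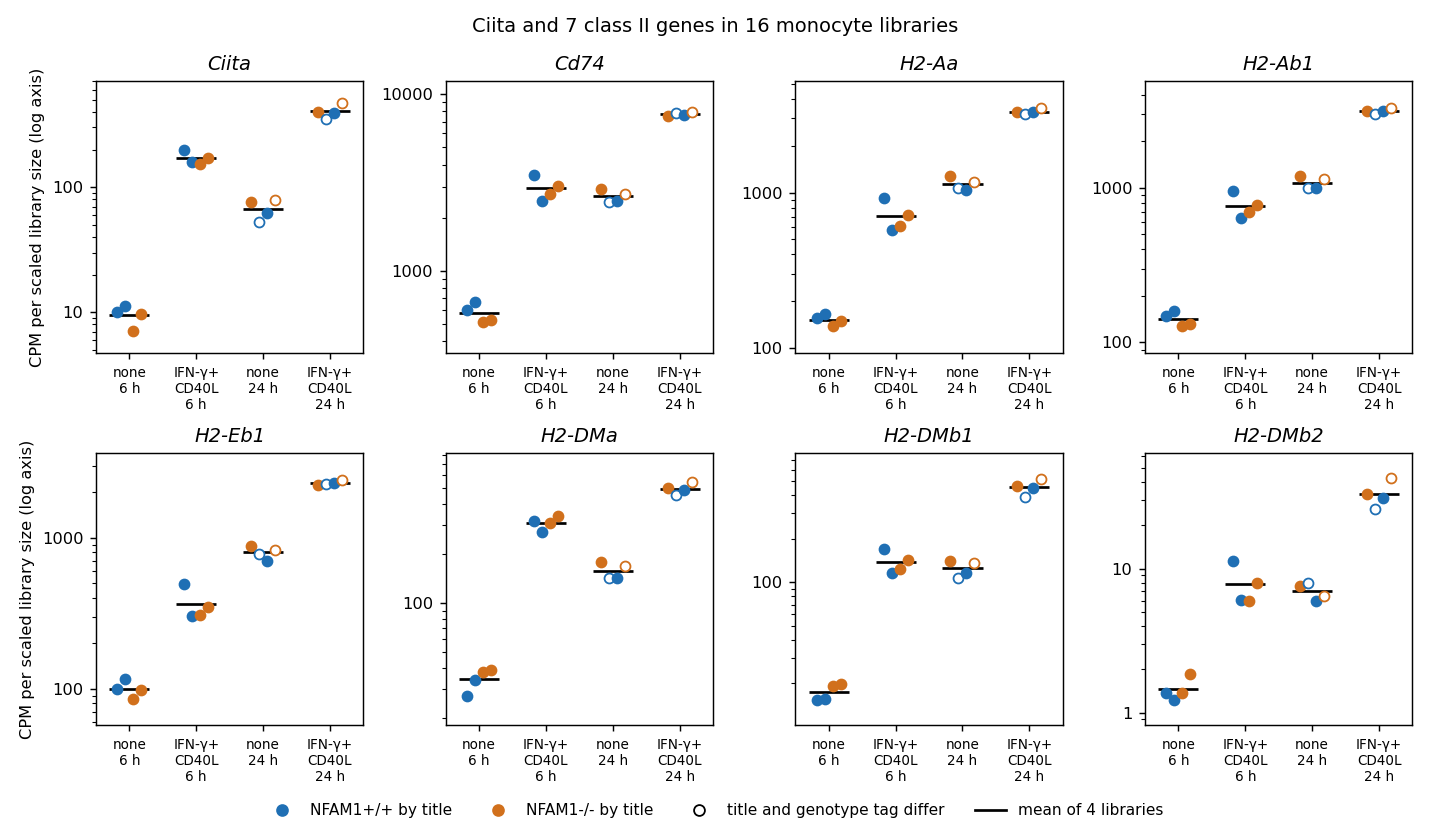
CPM per scaled library size (log axis) of the 8 genes in each of the 16 libraries, by stimulus and time, with the mean of 4 libraries as a line and open points where title and genotype tag differ. Ciita sits between 7.04 and 11.2 CPM in the unstimulated libraries at 6 h and between 351 and 470 CPM in those stimulated for 24 h.

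Cd74, on the plus strand of chromosome 18 from 60803848 to 60812652, encodes the invariant chain. It was the most abundant of the 8 genes per length in each condition, at 407 ± 51.4 CPM per kb in unstimulated monocytes at 6 h and 5467 ± 110 CPM per kb after 24 h of stimulus (SD, n = 4). Its levels at 6 h were 599, 670, 513 and 525 CPM without and 3510, 2499, 2715 and 3006 CPM with the stimulus. At 24 h they were 2908, 2467, 2483 and 2728 CPM without and 7560, 7818, 7674 and 7912 CPM with it. Stimulated libraries were above unstimulated ones at each time, whereas those stimulated for 6 h overlapped those left unstimulated for 24 h. On each library's own total the latter were above without overlap, at a mean of 3393 against 2298 CPM. Cd74 rose by a log2 fold change of 2.34 at 6 h (SE 0.10, limma, adjusted p = 1.12e-12) and 1.55 at 24 h (SE 0.10, limma, adjusted p = 4.60e-10).

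H2-Aa and H2-Ab1 encode the α and β chains of I-A, the class II molecule on the surface of C57BL/6 cells. H2-Aa was at 155, 166, 138 and 148 CPM in unstimulated and at 923, 574, 612 and 720 CPM in stimulated libraries at 6 h. At 24 h it was at 1276, 1062, 1041 and 1164 CPM and at 3292, 3212, 3289 and 3485 CPM. The order differed from that of Ciita, since every unstimulated library at 24 h lay above every library stimulated for 6 h. H2-Ab1 had the same order, with means of 142 ± 15.2, 766 ± 137, 1080 ± 98.7 and 3132 ± 102 CPM (SD, n = 4) in the unstimulated and stimulated libraries at 6 h and then at 24 h. With the stimulus H2-Aa rose by 2.20 and H2-Ab1 by 2.42 on the log2 scale at 6 h, and by 1.55 and 1.54 at 24 h.

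H2-Eb1 encodes the β chain of I-E, whose α partner C57BL/6 mice do not make. It was at 99.7, 116, 86.0 and 97.7 CPM in unstimulated and at 494, 303, 306 and 349 CPM in stimulated libraries at 6 h. At 24 h it was at 882, 781, 706 and 825 CPM without and at 2243, 2257, 2283 and 2418 CPM with the stimulus. Its log2 fold change with the stimulus at 6 h was 1.84 (SE 0.13, limma, adjusted p = 4.49e-10), the lowest of the 8 genes, and at 24 h it was 1.53. As for H2-Aa and H2-Ab1, the unstimulated libraries at 24 h were all above those stimulated for 6 h, here by a ratio of means of 2.20.

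H2-DMa and H2-DMb1 encode the chains of the peptide exchanger H2-DM. H2-DMa was at 27.0, 33.9, 37.8 and 38.8 CPM without and at 318, 269, 307 and 339 CPM with the stimulus at 6 h, and at 177, 141, 143 and 168 CPM and 502, 456, 486 and 545 CPM at 24 h. Its conditions had the order of Ciita and did not overlap on the deposited scale. On own totals the libraries stimulated for 6 h (242 ± 21.0 CPM) and those left unstimulated for 24 h (202 ± 24.3 CPM, SD, n = 4) overlapped. The log2 fold change of H2-DMa was 3.17 at 6 h (SE 0.11, limma, adjusted p = 2.52e-14), second to Ciita, and 1.67 at 24 h. H2-DMb1 had means of 17.5 ± 2.32, 138 ± 23.8, 125 ± 16 and 455 ± 53.2 CPM (SD, n = 4) in the order unstimulated and stimulated at 6 h and then at 24 h, and rose by 2.97 and 1.87 on the log2 scale. Its libraries stimulated for 6 h overlapped those left unstimulated for 24 h, and on own totals the latter were above without overlap, by a ratio of means of 1.48. H2-DMb2, a second β chain gene beside it, was far lower, at 1.23 to 1.87 CPM in unstimulated libraries at 6 h and 25.9 to 42.2 CPM after 24 h of stimulus, and rose by 2.39 and 2.23. Its transcript is 75.3% identical to that of H2-DMb1, and 13.5% of the windows of a read's length of 101 bases in H2-DMb1-201 also occur in H2-DMb2-201, so reads may be split between them and the values of H2-DMb2 are uncertain.

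Over all genes tested, 19% of 12782 were called higher with the stimulus at 6 h and 14.6% at 24 h, where called means a fold change of at least 2 and an adjusted p under 0.05 over all genes. All 8 of the class II genes were called higher at each time. Their median log2 fold change was 2.41 at 6 h and 1.61 at 24 h. Of the genes called in either direction 48.1% were higher at 6 h and 43.8% at 24 h, and 22.0% and 30.4% when each library was scaled to its own total. On that scale the 8 genes were still called higher at both times, Ciita with 3.45 and H2-Eb1 with 1.11 at 6 h. Under quantile normalization 5 were called at 24 h, as H2-Aa (0.88), H2-Ab1 (0.85) and H2-Eb1 (0.80) came below a fold change of 2.

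**Figure D2:**
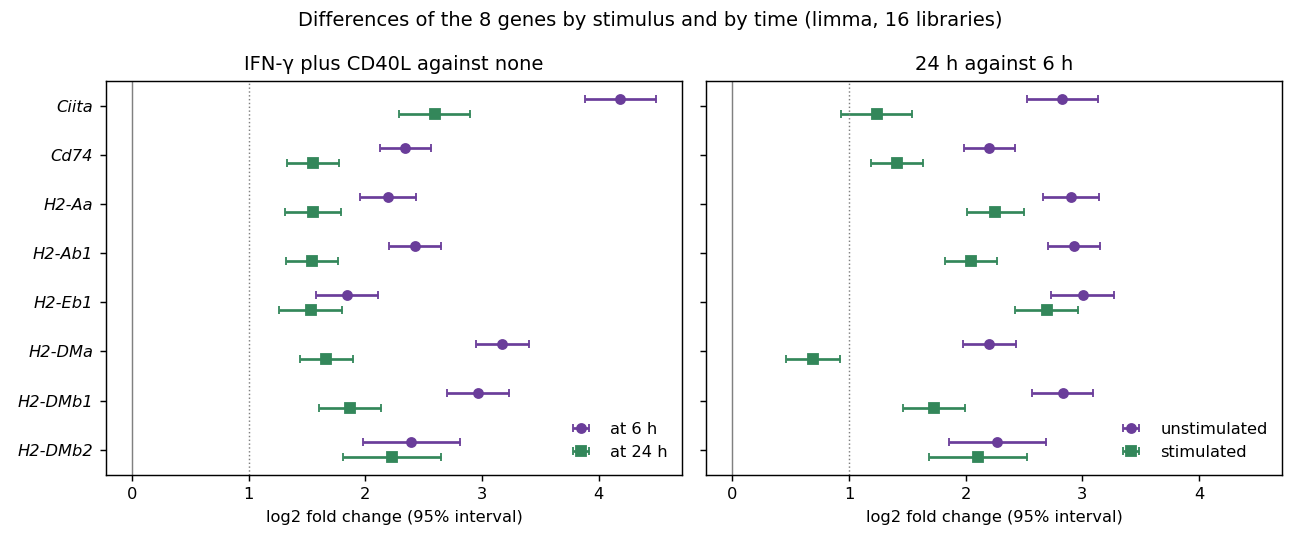
Log2 fold changes with 95% intervals from limma, for the stimulus at 6 h and 24 h (left) and for 24 h against 6 h without and with the stimulus (right). The dotted line marks a fold change of 2. Ciita runs from 4.18 at 6 h to 2.59 at 24 h, and H2-DMa with the stimulus (0.69) is the single point below the dotted line.

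The same genes were higher after longer culture. From 6 h to 24 h without a stimulus all 8 rose, by log2 fold changes of 2.20 for Cd74 and H2-DMa up to 3.00 for H2-Eb1 (SE 0.13, limma, adjusted p = 5.33e-12). Over all genes 13.2% were called higher in this comparison. Ciita rose by 2.83 (SE 0.14, limma, adjusted p = 4.81e-11) and H2-Aa by 2.90. Markers of several other cell types also moved in this comparison. Of the 10 dendritic cell markers Flt3, Clec10a, Cd209a, Ccr7, Clec9a and Dpp4 were called higher and Xcr1 lower at 24 h. Of 5 plasmacytoid dendritic cell markers 4 were called higher, with a sum of 67.8 to 85.1 CPM at 6 h and 154 to 195 CPM at 24 h. Of 7 neutrophil markers 4 were called higher and 1 lower, and they summed to 62.2 to 147 CPM and 292 to 505 CPM. The 3 T cell markers present, 2 of them called higher, summed to 0.605 to 1.47 CPM and 4.36 to 7.0 CPM. The 5 B cell markers present, 2 of them called higher, summed to 14.1 to 18.0 CPM and 29.7 to 39.7 CPM. Of the 8 monocyte markers 1 was called higher and 1 lower. Among all genes 7.7% were called lower, and the part of any of these cells in the class II values was not tested.

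With IFN-γ plus CD40L, 7 of the 8 genes were called higher at 24 h than at 6 h, where 16.4% of all genes were. H2-Eb1 rose the most, by 2.69 (SE 0.13, limma, adjusted p = 6.00e-12), followed by H2-Aa with 2.26, H2-DMb2 with 2.11 and H2-Ab1 with 2.05. Cd74 rose by 1.41 and Ciita by 1.24 (SE 0.14, limma, adjusted p = 5.97e-07). H2-DMa passed the adjusted p but not the fold change, at 0.69 (SE 0.11, limma, adjusted p = 1.72e-05), and was called under quantile normalization and under each library's own total, at 1.07 in both. On own totals 69.3% of the genes called in this comparison were higher, against 49.1% on the deposited scale. Together the 8 genes took 0.121% to 0.152% of the reads of unstimulated libraries at 6 h, 0.368% to 0.50% after 6 h of stimulus, 0.712% to 0.857% unstimulated at 24 h and 1.76% to 1.92% after 24 h of stimulus.

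The response to the stimulus was smaller at 24 h than at 6 h for 3 of the 8 genes, tested as an interaction of stimulus and time. These were Ciita at -1.59 on the log2 scale (SE 0.20, limma, adjusted p = 3.25e-06), H2-DMa at -1.51 (SE 0.15, limma, adjusted p = 2.15e-07) and H2-DMb1 at -1.10 (SE 0.18, limma, adjusted p = 3.73e-05). Among all genes 18.1% were called lower and 31.3% in either direction. Cd74 (-0.79), H2-Ab1 (-0.88) and H2-Aa (-0.65) passed the adjusted p without reaching a fold change of 2, which makes 6 of 8 genes by the adjusted p alone, where 64.7% of all genes passed it. For H2-Eb1 the difference was -0.31 (95% interval -0.69 to 0.07, limma, adjusted p = 0.139) and for H2-DMb2 -0.17 (95% interval -0.76 to 0.43, limma, adjusted p = 0.621). The unstimulated level from which each response is measured had itself risen between the times.

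Several of these differences depend on the scaling or on 1 library. Under each library's own total Ciita (-1.19) and H2-DMa (-1.11) were still called, H2-DMb1 (-0.70) was not, and H2-Eb1 (0.09) and H2-DMb2 (0.23) turned sign. Cd74 turned to 0.66 under quantile normalization. Without library 26, an NFAM1+/+ library stimulated for 6 h, the difference of H2-DMb1 was -0.99 and 2 genes were called. Library 26 was the highest of its condition for Cd74, Ciita, H2-Aa, H2-Ab1, H2-Eb1, H2-DMb1 and H2-DMb2, as in H2-Eb1 at 494 CPM against 303 to 349. Its dendritic cell markers summed to 263 CPM against 194 to 230 CPM in the other 3 libraries of the condition. It was the highest in 5 of these 10 markers, Ccr7, Clec9a, Xcr1, Itgax and Dpp4, and the lowest in 1, Clec10a, and the part of such cells in its class II values was not tested. Much of the gap in the sum was Ccr7, at 66.7 CPM against 16.2 to 33.2 in the others. Without library 26 all 8 genes were still called with the stimulus at 6 h, Ciita at 4.11 and H2-Eb1 at 1.68.

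Ratios between genes of 1 library do not depend on its scaling. For each CPM of Ciita there were 14.9 to 19.6 CPM of H2-Aa in unstimulated libraries at 6 h and 3.58 to 4.63 after 6 h of stimulus. At 24 h the ratio was 14.8 to 20.3 without and 7.41 to 9.14 with the stimulus. So the ratio overlapped between the unstimulated libraries of both times, and at each time the stimulated libraries lay below them. The ratio to Ciita was lower in the libraries stimulated for 6 h without overlap for all 7 of the other genes and for 93.1% of all genes, so this was shared by most of the table. From 6 h to 24 h of stimulus, H2-Aa, H2-Ab1, H2-Eb1, H2-DMb1 and H2-DMb2 were higher against Ciita without overlap, 5 of 7 genes, where 4.16% of all genes did. H2-DMa was lower against Ciita, as were 70.9% of all genes.

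Within the class II genes the proportions also moved. H2-Eb1 was 0.622 to 0.700 of H2-Aa in unstimulated libraries at 6 h, 0.484 to 0.535 after 6 h of stimulus, and 0.678 to 0.735 and 0.682 to 0.703 at 24 h without and with it. It was the one of the 7 genes whose ratio to H2-Aa was lower after 6 h of stimulus without overlap, as for 84.8% of all genes, while for 4 of 7 it was higher, as for 6.53% of all genes. Cd74 was 3.54 to 4.44 times H2-Aa in the 6 h libraries and 2.27 to 2.43 times at 24 h, with or without the stimulus. H2-DMa was 0.174 to 0.273 of H2-Aa unstimulated and 0.344 to 0.502 stimulated at 6 h, and 0.133 to 0.156 in the 24 h libraries. Per length H2-DMa (12.9 CPM per kb) and H2-DMb1 (12.5 CPM per kb) were alike in unstimulated cells at 6 h, and after 24 h of stimulus H2-DMb1 (324 ± 37.9 CPM per kb) was above H2-DMa (186 ± 13.9 CPM per kb, SD, n = 4).

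**Figure D3:**
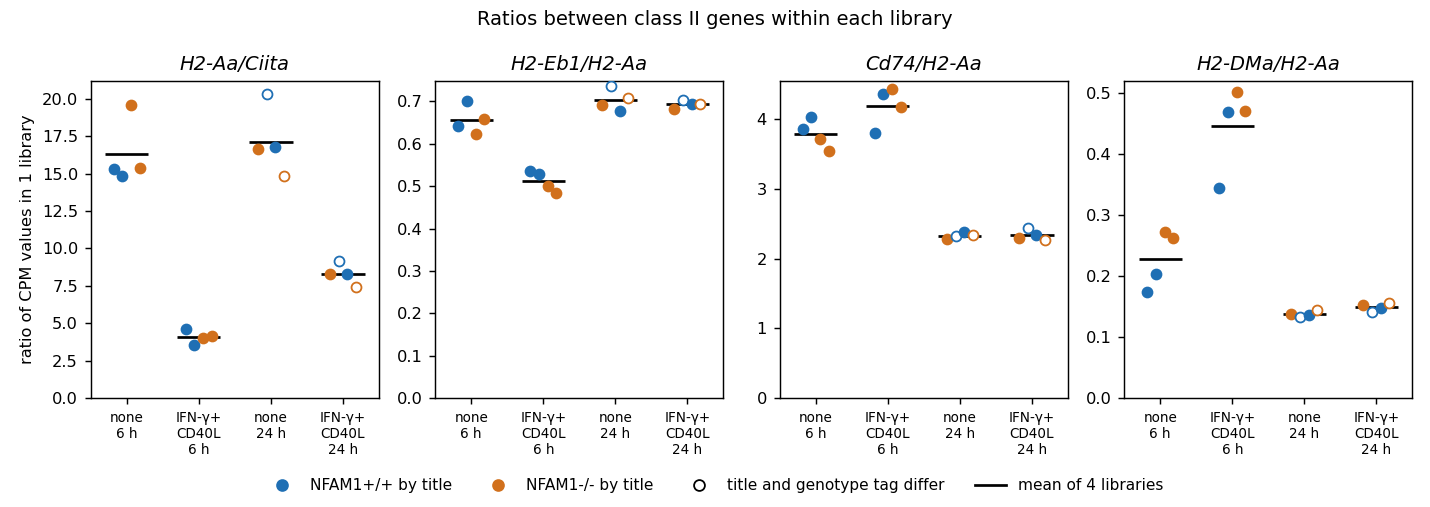
Ratios of CPM between pairs of class II genes within each library, by stimulus and time, with the mean of 4 libraries as a line and open points where title and genotype tag differ. H2-Aa over Ciita is 14.9 to 19.6 without and 3.58 to 4.63 with 6 h of stimulus, and H2-Eb1 over H2-Aa is lowest after 6 h of stimulus.

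Upstream of Ciita, 4 of 9 genes of its induction were called higher and 1 lower with the stimulus at each time. Over all genes, which are the measure for this list and those that follow, 19% were called higher and 20.5% lower at 6 h, and 14.6% and 18.7% at 24 h. At 6 h Irf1 rose by 6.50, Irf8 by 3.36, Jak2 by 3.25 and Irf2 by 2.34 on the log2 scale, whereas Ifngr1, the ligand-binding chain of the IFN-γ receptor, fell by 2.38. At 24 h the same 5 genes were called, with Irf1 at 5.34, Irf8 at 2.13 and Ifngr1 at -1.84. The values not called were -0.56 to 0.62 at 6 h, and those of Jak1, Usf1 and Spi1 were above 0 on the deposited scale and below it on own totals. In unstimulated cells none of the 9 was called between 6 h and 24 h at a fold change of 2, the time over which Ciita rose by 2.83. There Irf1 was at 0.74 (limma, adjusted p = 5.42e-08). The responses of Irf8 (-1.24) and Irf1 (-1.15) were called smaller at 24 h, 2 of the 9, where 18.1% of all genes were.

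Of the 7 enhanceosome genes, Rfx5, the large RFX subunit, was called higher with the stimulus at 6 h (2.14) and at 24 h (2.31). Rfxank, another RFX subunit, was called lower at 6 h (-1.21), though not under quantile normalization, and was not called at 24 h (0.33). The other 5, Rfxap, Nfya, Nfyb, Nfyc and Creb1, were between -0.66 and 0.48 at 6 h and not called. Of 4 genes that restrain Ciita or the signal to it, Socs1, an inhibitor of JAK kinases, rose by 9.43 and Zbtb32 by 2.29 at 6 h, and by 6.28 and 2.78 at 24 h. Tgfb1 fell by 1.22 at 24 h, and Prdm1 was at 0.44 and 0.07 and was not called.

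The 9 genes of loading and antigen processing went in different directions. At 6 h Sppl2a, the protease that clears the last fragment of CD74 from the membrane, rose by 2.49, whereas the endosomal proteases Lgmn, Ctsd and Ctsl fell by 2.80, 2.70 and 1.82. Ctss, the cathepsin that degrades CD74 in antigen-presenting cells, was at 0.98 at 6 h and 0.49 at 24 h and was not called. At 24 h Ifi30 (1.67), Ctsz (1.46) and Sppl2a (1.44) were called higher, and Lgmn (-4.72), Cst3 (-1.71) and Ctsd (-1.29) lower. Without a stimulus Ctsd (2.34), Ctss (1.26) and Ctsb (1.19) rose from 6 h to 24 h.

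**Figure D4:**
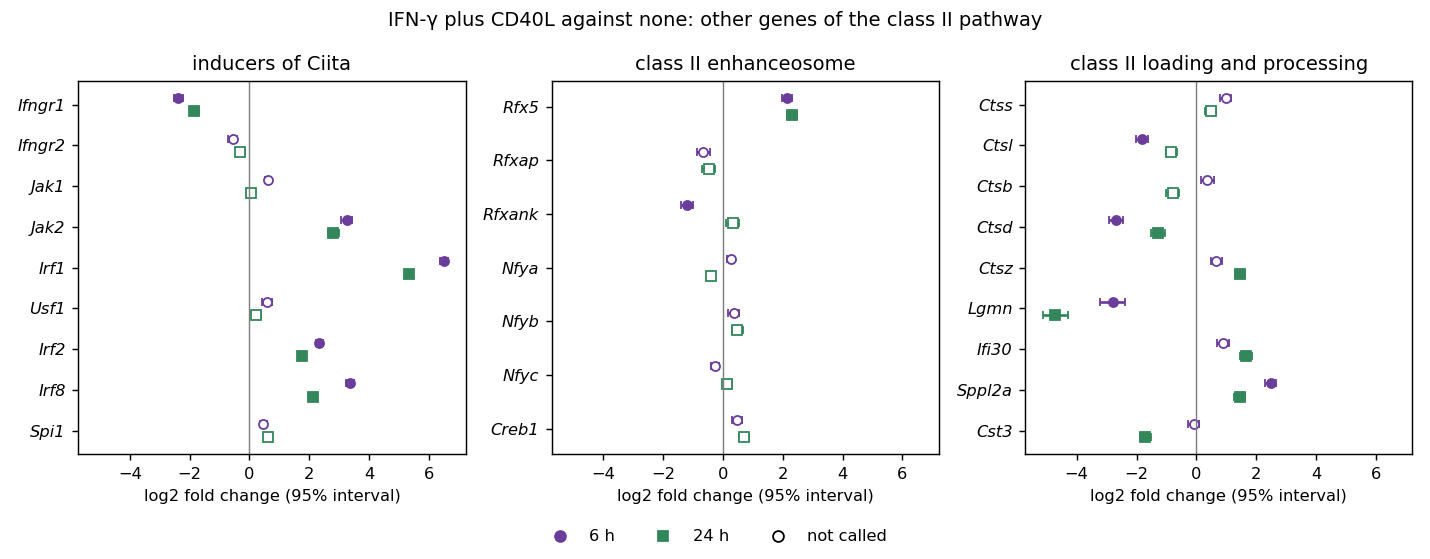
Log2 fold changes with the stimulus at 6 h and 24 h, with 95% intervals from limma, for genes that induce Ciita, genes of the enhanceosome and genes of loading and processing. Filled points were called. Irf1 (6.50 at 6 h) is the highest of the inducers shown, Rfx5 is the one enhanceosome gene called higher, and Lgmn (-4.72 at 24 h) is the lowest of all.

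Of 3 further class II genes in the table, H2-Oa and H2-Ob encode H2-O, an inhibitor of H2-DM. H2-Oa rose with the stimulus at both times, by 2.90 and 3.62. H2-Ob rose by 1.73 at 6 h and fell by 1.20 at 24 h, and the difference between these responses was -2.92 (SE 0.31, limma, adjusted p = 4.14e-07). H2-Eb2 was at -0.54 at 6 h, not called, and rose by 1.77 at 24 h. All 3 rose from 6 h to 24 h without a stimulus, H2-Ob by 2.80 (limma, adjusted p = 1.14e-08), H2-Oa by 2.56 and H2-Eb2 by 1.71. Each gene that was called in any list above had the same sign under quantile normalization, centring on medians and own totals. Not each of them was still called there.

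Over the 16 libraries the log2 values of Ciita ran closest to those of Anpep (Pearson r = 0.99), Nek6 (0.99), Isoc1 (0.98), Agrn (0.98) and Unc13d (0.98) among genes outside the 8. Of its own targets H2-DMa was closest (0.99) and H2-Eb1 least close (0.87). The mean of Cd74, H2-Aa, H2-Ab1 and H2-Eb1 ran close to Atp6v0c, Snx8 and Plxna1 (0.98 each) and Ctss (0.97). These are descriptions over libraries that share 4 conditions, and r is set mostly by the distances between the conditions.

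The study deleted NFAM1 to ask how monocyte activation changes without it. Nfam1, counted over the whole gene with the undeleted exons included, was at 432 and 408 CPM in unstimulated NFAM1+/+ and at 299 and 321 CPM in NFAM1-/- libraries at 6 h, and at 133 and 129 against 135 and 127 CPM with the stimulus. At 24 h by title it was at 463 and 495 against 441 and 391 CPM unstimulated and at 271 and 252 against 201 and 223 CPM stimulated. By title the genotypes thus did not overlap except in the stimulated libraries at 6 h, and no difference of Nfam1 passed the test (limma, adjusted p = 0.0799 in unstimulated cells at 6 h). By title 42.2% of all genes did not overlap in unstimulated cells at 6 h. At 24 h these were 45.4% in unstimulated and 48.2% in stimulated cells. By the genotype tag the 24 h libraries overlapped for Nfam1, where 25.5% and 29.3% of all genes did not.

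None of the 8 genes was called between genotypes in any condition (limma, fold change of at least 2 and adjusted p under 0.05). In unstimulated cells at 6 h 0.0661% of 12111 genes were called, and in stimulated cells 0.033%. At an unadjusted p under 0.05 there were 2 of the 8 in unstimulated and 0 in stimulated cells at 6 h, where 8.74% and 12.6% of all genes passed it. With limma's voom weights none of the 8 was called either. Ciita was at 10.1 and 11.2 CPM in NFAM1+/+ and 7.04 and 9.65 CPM in NFAM1-/- libraries without a stimulus at 6 h, a log2 difference of -0.37 (95% interval -0.73 to -0.01, limma, adjusted p = 0.569). H2-DMa was at 27.0 and 33.9 against 37.8 and 38.8 CPM, a difference of 0.34 (95% interval 0.07 to 0.61, limma, adjusted p = 0.450). Both NFAM1-/- libraries lay below both NFAM1+/+ libraries for Ciita, Cd74, H2-Aa, H2-Ab1 and H2-Eb1, 5 of 8 genes where 20.3% of all genes did so, and above them for H2-DMa and H2-DMb1, 2 of 8 where 21.8% did.

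With the stimulus at 6 h the genotypes overlapped for each of the 8 genes, where 42.4% of all genes did not overlap. The log2 differences ran from -0.26 for H2-DMb2 to 0.14 for H2-DMa. For 7 of the 8 genes, all but H2-DMa, the sign of this difference turned without library 26, to 0.01 to 0.21. The response to the stimulus did not pass the test of a difference between genotypes for any of the 8 (0% of all genes called, 0 of the 8 at an unadjusted p under 0.05), with a value for Ciita of 0.22 (95% interval -0.28 to 0.73, limma, adjusted p = 0.813).

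At 24 h the genotype depends on which label is read. By title, 0.222% of 12164 genes were called in unstimulated and 0.115% in stimulated cells, and none of the 8. At an unadjusted p under 0.05 there were 6 and 2 of the 8, where 12.0% and 17.8% of all genes passed it. In unstimulated cells Ciita was at 76.8 and 78.5 CPM in NFAM1-/- and 52.2 and 62.1 CPM in NFAM1+/+ libraries, a log2 difference of 0.45 (95% interval 0.21 to 0.69, limma, adjusted p = 0.117). All of the 8 genes but H2-DMb2 had both NFAM1-/- above both NFAM1+/+ libraries, 7 of 8 where 21.9% of all genes did. In the same NFAM1-/- libraries, 43 and 46, both values were above both NFAM1+/+ values for 8 of the 10 dendritic cell markers, as in Flt3 (129 and 145 against 67.3 and 77.7 CPM), Cd209a (97.9 and 112 against 50.5 and 58.1 CPM) and Clec10a (133 and 123 against 72.0 and 80.6 CPM), and for 0 of them both were below. The summed dendritic cell markers came to 516 and 542 against 355 and 348 CPM, and their part in the class II values was not tested. With the stimulus 5 of 8 genes had both NFAM1-/- above both NFAM1+/+ libraries, where 24.9% of all genes did, and Ciita differed by 0.21 (95% interval -0.03 to 0.45, limma, adjusted p = 0.343). In these stimulated libraries both NFAM1-/- values were above both NFAM1+/+ values for 3 of the 10 dendritic cell markers and below for 3. The markers summed to 286 and 233 against 295 and 284 CPM.

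By the genotype tag these differences were not seen. Ciita was then at -0.14 in unstimulated (95% interval -0.58 to 0.30, limma, adjusted p = 1.00) and -0.21 in stimulated cells at 24 h (95% interval -0.65 to 0.23, limma, adjusted p = 0.999). By tag 0.00822% of all genes were called in unstimulated and 0% in stimulated cells, none of them among the 8, and 0 of the 8 had an unadjusted p under 0.05 in either. Both NFAM1-/- libraries by tag lay above both NFAM1+/+ libraries for 1 of 8 genes unstimulated, where 13.8% of all genes did, and below them for 2 of 8 stimulated, where 14.5% did. With the stimulus each of the 8 genes had a negative difference by tag, from -0.31 for H2-DMb2 to -0.02 for Cd74.

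**Figure D5:**
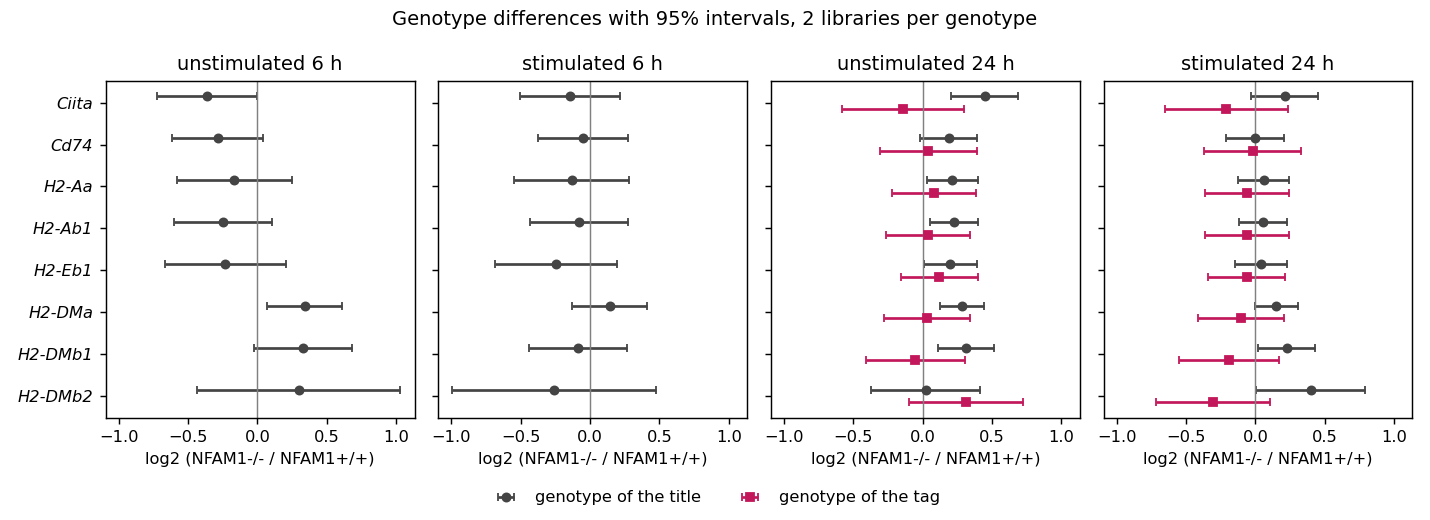
Log2 differences of NFAM1-/- against NFAM1+/+ for the 8 genes in each condition, with 95% intervals from limma and 2 libraries per genotype, by the title and, at 24 h, also by the genotype tag. Ciita in unstimulated cells is at -0.37 at 6 h, and at 24 h at 0.45 by title and -0.14 by tag.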

How the data were processed

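RNA of the 16 libraries was sequenced as non-stranded polyA libraries with paired reads of 101 bases. The authors aligned reads with STAR, counted them per gene with Rsubread, normalized with edgeR and deposited log2 CPM, and the submitters' processing notes name FastQC, STAR, edgeR and limma and the builds GRCm39 and mm39. Tool versions and the authors' filter on low genes are not given in the sources used here. The deposited log2 values are those of whole read counts with 0.5 added, divided by a scaled size of the library, so reads and depth could be recovered, within 0.05 of a whole read. Of the symbols, 17 appear as dates and 1 is listed more than once. The 112 other symbols of the lists were looked up, and 91 are in the table.

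Deposited log2 values were fitted with limma 3.58.1 in R 4.3.3, with a prior variance that follows mean expression. Stimulus and time were compared over 16 libraries in 4 groups (12782 genes that reached 1 CPM in 2 or more libraries, 303 left out), and genotypes within the 8 libraries of each time (974 and 921 genes left out at 6 h and 24 h). The 8 genes passed each filter. Called means changed 2-fold or more with a p, adjusted by Benjamini-Hochberg over all genes tested, under 0.05. Fold changes are log2, and means and SDs are of unlogged CPM. With 2 libraries per genotype an exact permutation test of 1 gene cannot go below 0.333, and the spread between libraries limits precision more than depth. Per-length levels divide CPM by the merged exon length of the coding transcripts. The fits were tested on simulated data. Promoters and gene models came from RefSeq and GENCODE vM21, and transcripts were aligned with Biopython 1.88. The region around the boxes of H2-DMb1 is in an exon by GENCODE and is not printed.

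The 8 genes and the lists were chosen with earlier results of these data known. Named were the 8 genes, genes of the lists, Nfam1, and for Ciita and for the mean of Cd74, H2-Aa, H2-Ab1 and H2-Eb1 the 5 genes outside the 8 with the highest r. A few genes that this rule takes in are not reported here. Motif letters were set with the sequences in view. Alternatives were other filters, scalings, pseudocounts, weights, prior variances and groupings, and leaving out each library.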

Additional observations from a re-analysis of the deposited data

Results flagged for a closer look

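The response to IFN-γ plus CD40L differed between 6 h and 24 h for 3 of the 8 genes, by limma's test of the interaction of stimulus and time over 16 libraries. The 24 h response was below the 6 h response by -1.59 on the log2 scale for Ciita, by -1.51 for H2-DMa and by -1.10 for H2-DMb1, and each of these genes rose at both times. Over all genes the response was called different in 31.3%, and lower at 24 h in 18.1%. On own totals H2-DMb1 (-0.70) was not called. In the 32 groups of 4 libraries (8 genes in 4 conditions) no library stood apart by Dixon's test. With 4 libraries per group this test can miss a library that lies well away from the rest. It did not flag library 26 for H2-Eb1 after 6 h of stimulus, at 494 CPM against 303 to 349 CPM in the others. Without library 26 the difference of responses of H2-DMb1 was -0.99 and did not reach a fold change of 2. So the result of Dixon's test does not show that the differences are free of single libraries.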

How the results depend on the processing

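Of 1913 values of single genes under alternatives, 1854 kept their direction and their side of the threshold, 5 lost a call, 8 gained one and 46 turned sign, 41 of these between genotypes, 5 in the difference of responses and 0 in the comparisons of stimulus or time. Counts of called genes were within 1.5 times the reported count in 233 of 235 cases. The others were 5 genes called with the stimulus at 24 h under quantile normalization and 6 for the difference of responses with no minimum fold change. Leaving out each library in turn gave 8 to 8 genes for the stimulus at 6 h and at 24 h and for time unstimulated, 7 to 7 for time stimulated, 2 to 3 for the difference of responses (2 without library 26) and 0 to 0 in each genotype comparison. The difference of responses of H2-DMb2 was then -0.29 to 0.023, and it was 0.23 on own totals and 0.27 as log2(CPM + 1). H2-Eb1 was at 0.089 on own totals and Cd74 at 0.66 under quantile normalization. As 1 sum, H2-DMb1 and H2-DMb2 were at -1.04.

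Leaving out each library moved the genotype difference of stimulated cells at 6 h from -0.30 to 0.015 for Ciita, -0.30 to 0.19 for Cd74, -0.48 to 0.21 for H2-Aa, -0.37 to 0.21 for H2-Ab1, -0.60 to 0.11 for H2-Eb1, -0.36 to 0.18 for H2-DMb1 and -0.70 to 0.18 for H2-DMb2. For the interaction of genotype and stimulus it ran from -0.0032 to 0.45 for Ciita, -0.0098 to 0.48 for Cd74, -0.31 to 0.38 for H2-Aa, -0.12 to 0.46 for H2-Ab1 and -0.36 to 0.34 for H2-Eb1, with H2-Eb1 at 0.039 under quantile normalization and H2-Aa at -0.00026 when centred. At 24 h by title it ran from -0.19 to 0.23 for H2-DMb2 unstimulated, and stimulated from -0.035 to 0.031 for Cd74 and -0.017 to 0.091 for H2-Eb1. Stimulated Cd74 was at 0.82 under quantile normalization and 0.032 on own totals. By tag, unstimulated Ciita was at -0.14 and H2-DMb1 at -0.053, and stimulated Ciita at -0.21, H2-Aa at -0.058, H2-Ab1 at -0.062, H2-Eb1 at -0.062, H2-DMa at -0.11, H2-DMb1 at -0.19 and H2-DMb2 at -0.31. With only the libraries whose labels agree, H2-Ab1 was at -0.010 and H2-Eb1 at -0.025 in stimulated cells. The cause of these changes was not tested. No paired analysis was possible because it is not given which libraries share a mouse. With 76 to 213 reads in unstimulated libraries at 6 h, H2-DMb2 is the least precise of the 8 genes.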

Other observations

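Genes beside the class II genes and the class I counterpart of Ciita also moved with the stimulus. Nlrc5, the regulator of MHC class I transcription, rose by 6.39 at 6 h and 4.14 at 24 h on the log2 scale, and B2m by 2.32 and 2.12, H2-K1 by 1.62 and 2.55 and H2-D1 by 1.92 and 1.60. All 4 of this list were called higher at both times, where 19% of all genes were at 6 h and 14.6% at 24 h. Under quantile normalization 2 of the 4 were called higher at 6 h. Unlike Ciita, which rose by 2.83 from 6 h to 24 h without a stimulus, B2m (0.23), H2-D1 (-0.22) and H2-K1 (-0.40) were not called there, while Nlrc5 rose by 1.42. Of 6 other genes listed as neighbours of the class II region, Tap1 (5.09), Tap2 (4.93), Psmb9 (5.14), Psmb8 (3.51) and Brd2 (1.68) rose at 6 h and Notch4 fell by 2.10. These 6 were called in the same directions at 24 h. Under quantile normalization 4 of the 6 were called higher and 1 lower at 6 h.

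Of 5 genes listed as neighbours of Ciita, Rmi2 rose by 3.48 at 6 h and 6.28 at 24 h, and Dexi by 1.57 and 1.20. These were 2 of 5 called higher at each time, where 19% of all genes were at 6 h and 14.6% at 24 h. Rmi2 fell by 2.78 from 6 h to 24 h without a stimulus, when Ciita rose. Of 4 ligands and partners of CD74, Cxcr4 fell by 2.94 at 6 h and 1.66 at 24 h, and Mif rose by 1.28 at 24 h. Cd83, which keeps class II molecules on the surface by opposing their ubiquitination, rose by 1.81 at 6 h and was at 0.55 at 24 h, not called. The plasmacytoid dendritic cell markers summed to 67.8 to 85.1 CPM in unstimulated and 481 to 612 CPM in stimulated libraries at 6 h, mostly Bst2, which rose by 3.88. The B cell markers summed to 99.8 to 154 CPM after 24 h of stimulus, mostly Spib, which rose by 3.80, while Cd22, Cd79a, Cd79b and Fcrla fell.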
